A study of Homo sapiens with 18 samples.

Results

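The genes described here make, interconvert and break down the polyamines putrescine, spermidine and spermine, or set how long the first enzyme of the pathway lasts. They were chosen by symbol, and all 10 were found among the 63241 genes of the deposited table: ODC1, AMD1, SRM, SMS, SAT1, SMOX, PAOX, OAZ1, OAZ2 and AZIN1. RNA was sequenced in 18 libraries, 3 for each of 6 groups, from human cell lines of prostate cancer. LNCaP, a line derived from a lymph node metastasis, was untreated or had been given genistein at 10 or 20 µM or baicalein at 10 or 20 µM for 24 h. PC-3, a line derived from a bone metastasis, was untreated only. Both lines carry the label wild type. The labels call the controls untreated, while the protocol describes a DMSO vehicle, and each group comes from a single cell line. Nothing in the labels ties the replicates to separate cultures. The p-values below therefore speak for these libraries alone, whose differences may be technical.

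Polyamines are small positively charged molecules that bind nucleic acids and are needed for growth, and the prostate makes and secretes them in large amounts. Ornithine decarboxylase, the product of ODC1, makes putrescine from ornithine. S-adenosylmethionine decarboxylase, the product of AMD1, makes the aminopropyl donor that spermidine synthase (SRM) and spermine synthase (SMS) add to putrescine and to spermidine. In the other direction, spermidine/spermine N1-acetyltransferase (SAT1) acetylates the higher polyamines, PAOX oxidises the acetylated forms, and SMOX oxidises spermine directly and releases hydrogen peroxide. The antizymes OAZ1 and OAZ2 bind ornithine decarboxylase and send it to the proteasome, and the antizyme inhibitor AZIN1 binds antizyme in its place. Ornithine decarboxylase, S-adenosylmethionine decarboxylase and the antizymes are also controlled at translation and by protein turnover, which RNA counts do not show.

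With 20 µM baicalein AMD1, SRM and SMS were lower and passed the test described below. ODC1 was also lower there, at -0.30 on the log2 scale, but did not pass. Whether ODC1 differed from the others was not tested, nor was any link of promoter sequence to these changes. Promoters of the 4 synthesis genes are printed here. Each runs from 250 bases before to 50 bases after the start of the RefSeq gene on GRCh38.p14, in lower case, with each CACGTG in capitals. CACGTG is the canonical E-box, the element bound by MYC and MAX, and it reads the same on both strands.
ODC1, chr2:10447963-10448262, minus strand: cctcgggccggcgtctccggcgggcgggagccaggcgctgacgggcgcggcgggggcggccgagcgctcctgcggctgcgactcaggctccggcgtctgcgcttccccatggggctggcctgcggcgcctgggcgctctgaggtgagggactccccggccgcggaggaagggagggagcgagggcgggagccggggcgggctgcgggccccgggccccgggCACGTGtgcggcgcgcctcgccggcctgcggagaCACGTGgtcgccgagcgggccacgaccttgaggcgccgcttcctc
AMD1, chr6:110874534-110874833, plus strand: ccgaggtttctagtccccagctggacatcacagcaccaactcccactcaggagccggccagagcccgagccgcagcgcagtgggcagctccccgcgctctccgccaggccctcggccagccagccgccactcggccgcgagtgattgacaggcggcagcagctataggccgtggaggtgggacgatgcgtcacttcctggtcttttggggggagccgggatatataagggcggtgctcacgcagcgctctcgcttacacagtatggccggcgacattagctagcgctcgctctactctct
SRM, chr1:11059969-11060268, minus strand: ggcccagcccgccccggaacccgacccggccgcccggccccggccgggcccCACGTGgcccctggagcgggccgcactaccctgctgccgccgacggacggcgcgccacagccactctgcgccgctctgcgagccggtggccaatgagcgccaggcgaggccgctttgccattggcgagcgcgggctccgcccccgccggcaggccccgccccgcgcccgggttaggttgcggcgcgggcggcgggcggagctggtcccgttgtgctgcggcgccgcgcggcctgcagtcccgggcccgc
SMS, chrX:21940459-21940758, plus strand: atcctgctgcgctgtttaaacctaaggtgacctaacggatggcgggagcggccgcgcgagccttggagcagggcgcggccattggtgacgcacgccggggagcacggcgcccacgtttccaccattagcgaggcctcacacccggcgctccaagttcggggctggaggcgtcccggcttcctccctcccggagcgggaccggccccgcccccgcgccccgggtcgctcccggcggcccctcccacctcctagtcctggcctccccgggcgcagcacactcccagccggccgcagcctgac
The ODC1 promoter held 2 E-boxes, which begin 29 bases before and 5 bases after the RefSeq gene start. The SRM promoter held 1, which begins 199 bases before its start. AMD1 and SMS held none in their windows. By the deposited gene position, chr2:10439968-10448327 on the minus strand, the whole ODC1 window lies inside the gene. The 2 sources thus place the start of ODC1 differently. Of the 35116 promoters of the same length, 7.26% held the motif. A second motif, the GC box GGGCGG read on both strands, occurred 4 times in ODC1, 6 times in SRM and 1 time each in AMD1 and SMS, and at least 1 time in 45.0% of all promoters. Promoters of SAT1, OAZ1 and OAZ2 were also searched: none held an E-box, OAZ1 and OAZ2 held 3 GC boxes each and SAT1 held 0. Promoters were searched for 7 of the 10 genes: SMOX and PAOX had no entry, and AZIN1 was left out of the search.

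Total counts per library lay between 10013567 and 18445711. LNCaP libraries had a marker of that line: untreated LNCaP held KLK3, the gene of prostate-specific antigen, at 1492 ± 135 CPM (mean ± SD, n = 3), against 1.67 ± 0.612 CPM in PC-3. CPM, the counts scaled to library size, are on 1 TMM scale shared by all 18 libraries. VIM and CD44 were high in PC-3, at 1825 ± 144 and 121 ± 8.31 CPM, against 6.14 ± 0.404 and 0.224 ± 0.144 CPM in untreated LNCaP. Markers of other cell types, PTPRC for leukocytes, DCN for fibroblasts and PECAM1 for endothelium, had group means of at most 4.24 CPM, the highest being PECAM1 in PC-3. A further fibroblast marker, COL1A1, stood at 13.3 ± 0.718 CPM in untreated LNCaP, 14.0 ± 2.08 at 20 µM baicalein and 8.55 ± 1.32 in PC-3. Genes encoded by the mitochondrial genome took 12.5% ± 1.97 (SD, n = 3) of the counts at 20 µM baicalein and between 4.55% and 6.05% on average in each of the other 5 groups. The 10 polyamine genes together took 0.248% ± 0.0237 of the counts in untreated LNCaP, 0.175% ± 0.0203 at 20 µM baicalein and 0.411% ± 0.0194 in PC-3.

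Within untreated LNCaP the levels were ordered per kilobase of exon, since a longer transcript gives more counts. The length used is the union of all annotated exons of a gene, which can exceed that of the transcript made. The order, also in the other groups, therefore depends on the annotation. In CPM without this division AMD1 stood highest at 592 ± 48.5, above OAZ1 at 439 ± 36.4 and ODC1 at 438 ± 16.3 CPM. ODC1 stood highest at 147 ± 5.49 CPM per kb (SD, n = 3). SAT1 at 132 ± 8.96 and OAZ1 at 128 ± 10.6 CPM per kb followed, and their libraries overlapped, so their order is not resolved. AMD1 at 84.3 ± 6.90, SRM at 76.0 ± 1.90 and SMS at 57.1 ± 6.55 CPM per kb came next, each with libraries that did not overlap those of its neighbour. AZIN1 followed at 28.1 ± 11.3, OAZ2 at 7.18 ± 4.01 and SMOX at 2.22 ± 0.374 CPM per kb. PAOX was lowest at 0.508 ± 0.0819 CPM per kb, which rests on 19 to 22 counts per library. In PC-3 the order was different: ODC1 reached 1063 ± 113 CPM per kb, SRM 111 ± 11.6 and OAZ1 109.6 ± 9.60 CPM per kb followed with overlapping libraries, and AMD1 stood in place 7 at 20.4 ± 0.944 CPM per kb. At 20 µM baicalein AMD1 was also in place 7 of 10, at 18.3 ± 0.665 CPM per kb.

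**Figure D1:**
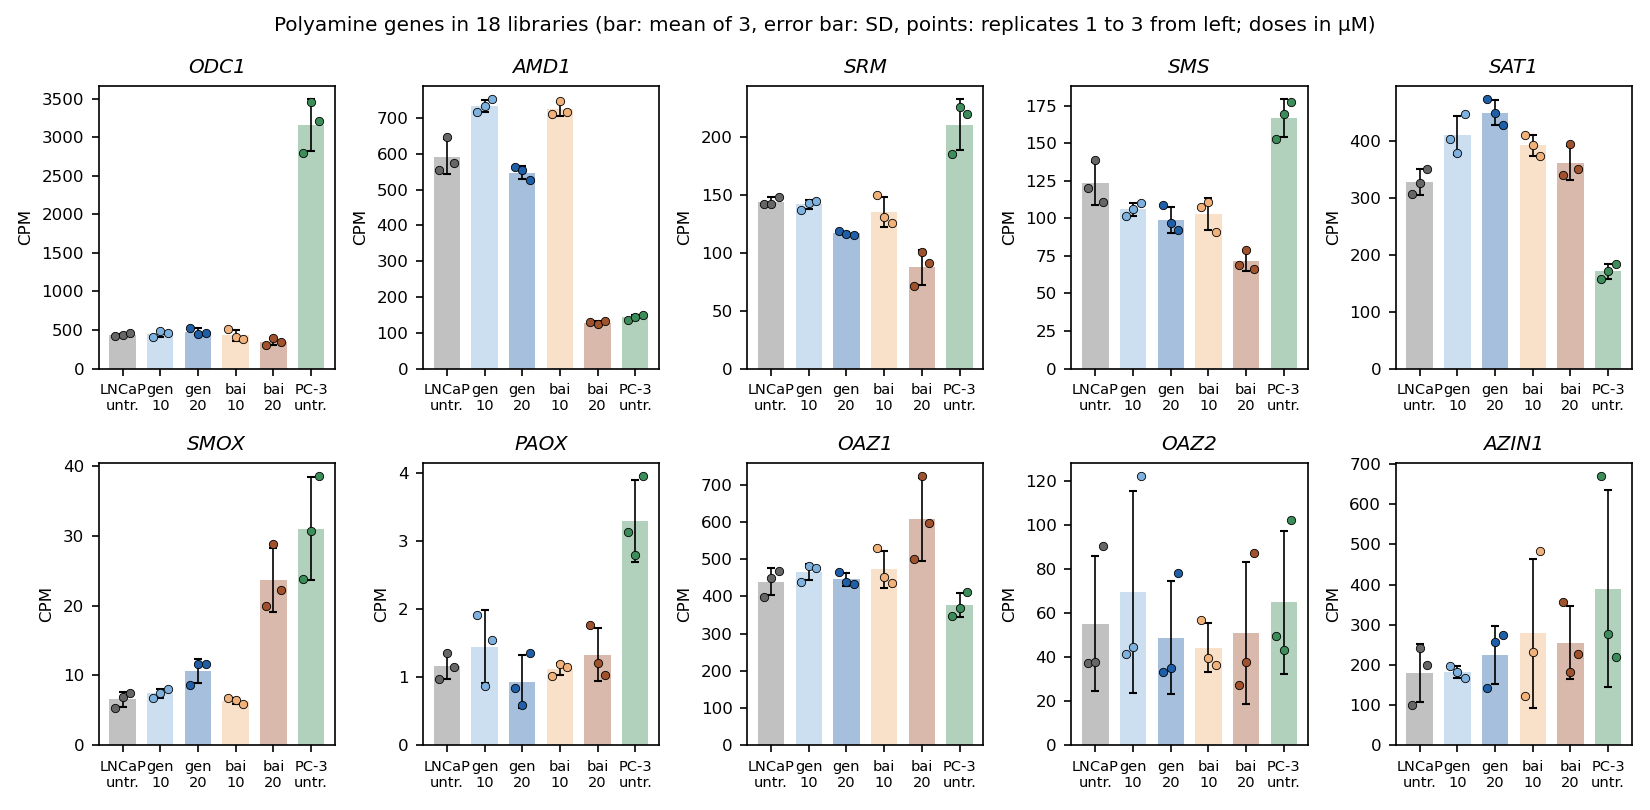
Level of each of the 10 polyamine genes (CPM, vertical axis from 0, 1 scale per gene) in the 6 groups; bars are means of 3 libraries, error bars are SD and points are the single libraries. AMD1 is low at 20 µM baicalein (124 to 133 CPM) and in PC-3 (136 to 149 CPM), SMOX is high in the same groups (20.0 to 28.9 and 23.9 to 38.6 CPM), and ODC1 is high in PC-3 alone (2793 to 3453 CPM).

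Among the synthesis genes, AMD1 had the largest called log2 fold change of a drug group against untreated LNCaP. Its gene lies at chr6:110874770-110898879, plus strand (GRCh38, as are all gene positions below), and 4 pseudogenes bear its name, so reads shared with those copies are uncertain. AMD1 stood at 556, 647 and 574 CPM in the untreated LNCaP libraries, 717, 733 and 752 with 10 µM genistein and 712, 748 and 717 with 10 µM baicalein. It stood at 562, 555 and 526 CPM with 20 µM genistein and at 129.8, 123 and 132 with 20 µM baicalein. All 3 libraries with 20 µM baicalein lay far below every other LNCaP library, and both 10 µM groups lay above untreated without overlap. Against untreated, 20 µM baicalein lowered AMD1 RNA 4.48-fold (log2 fold change -2.16 ± 0.09 (SE), edgeR adjusted p = 1.77e-09). Adjusted p-values here come from the quasi-likelihood test of edgeR with Benjamini-Hochberg adjustment over all genes tested in the comparison, and a gene was called at an adjusted p under 0.05. In bulk RNA, less RNA per cell and fewer cells of a kind cannot be told apart.

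The 10 µM differences of AMD1 did not pass that test. Its log2 fold change against untreated was 0.34 ± 0.09 (SE) with genistein (edgeR adjusted p = 0.278) and 0.34 ± 0.09 (SE) with baicalein (edgeR adjusted p = 0.137). DESeq2 called both, with log2 fold changes of 0.30 (adjusted p = 0.00131) and 0.29 (adjusted p = 0.00155). Over 15 alternatives the values ran from 0.237 to 0.645 with genistein and from 0.253 to 0.364 with baicalein. At 20 µM genistein AMD1 was -0.05 from untreated on the log2 scale (edgeR adjusted p = 0.719), with an interval of -0.24 to 0.13, and its libraries overlapped those of untreated. From 10 to 20 µM genistein it fell by 0.39 on the log2 scale (edgeR adjusted p = 0.0103), a call lost in 3 of 15 alternatives, among them with no filter on low counts (adjusted p = 0.0592) and without genistein 10 µM replicate 3 (adjusted p = 0.0541). With a trend on GC content and length removed from each library, that step was -0.75 in place of -0.39. From 10 to 20 µM baicalein AMD1 fell 5.66-fold (edgeR adjusted p = 6.68e-10).

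The aminopropyl transferases also fell with 20 µM baicalein. SRM, spermidine synthase (chr1:11054584-11060020, minus strand; 2 pseudogenes bear its name), stood at 142, 142 and 148 CPM in untreated LNCaP and at 71.0, 100.5 and 91.6 with 20 µM baicalein. No treated library reached the untreated range, and replicate 1 was the lowest. SRM fell 1.602-fold (log2 fold change -0.68 ± 0.12 (SE), edgeR adjusted p = 0.000332). SMS, spermine synthase (chrX:21940709-21994837, plus strand), stood at 120.0, 139 and 111 CPM in untreated LNCaP and at 69.2, 79.1 and 66.0 with 20 µM baicalein, again with no overlap. Its fall was 1.68-fold (log2 fold change -0.75 ± 0.12 (SE), edgeR adjusted p = 0.000136).

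In the 20 µM genistein libraries, SRM stood at 119, 117 and 116 CPM and SMS at 109, 96.6 and 92.1, below every untreated library. Their log2 fold changes were -0.24 ± 0.12 (SE) (edgeR adjusted p = 0.191) and -0.26 ± 0.12 (SE) (edgeR adjusted p = 0.159), so neither was called. With the GC and length trend removed both were called, at -0.25 for SRM (adjusted p = 0.0215) and -0.39 for SMS (adjusted p = 0.00684). At 10 µM, SRM stood at 138, 143 and 145 CPM with genistein and 150.2, 131 and 126 with baicalein, and SMS at 102, 106 and 109.9 and 107, 111 and 90.7. SRM overlapped untreated in both groups, and SMS lay just below it in both without being called (0.652 and 0.53, edgeR adjusted p).

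ODC1, the gene of the enzyme that starts the pathway, was not called in any drug group against untreated LNCaP. It lies at chr2:10439968-10448327, minus strand, and a small nucleolar RNA gene, SNORA80B, overlaps it on the same strand. Its level was 424, 434 and 456 CPM in untreated LNCaP, 403, 486 and 457 with 10 µM genistein, 514, 404 and 379 with 10 µM baicalein and 531, 446 and 456 with 20 µM genistein. With 20 µM baicalein it was 309, 391 and 338 CPM, each library below the lowest untreated one. That difference, -0.30 ± 0.14 (SE) on the log2 scale, was not called (edgeR adjusted p = 0.0788). It was called by DESeq2 (adjusted p = 0.0294), with mitochondrially encoded genes left out (adjusted p = 0.0354) and without baicalein 20 µM replicate 2 (adjusted p = 0.0405), and in 7 of 15 alternatives in all. From 10 to 20 µM baicalein the step was -0.33 ± 0.14 (SE) and was not called (edgeR adjusted p = 0.0584), and the libraries of the doses overlapped. It was called in 7 of 15 alternatives, among them leaving out baicalein 10 µM replicate 3 (adjusted p = 0.0311) or baicalein 20 µM replicate 2 (adjusted p = 0.0309).

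On the breakdown side, SMOX rose with both drugs at 20 µM. Spermine oxidase RNA was scarce in untreated LNCaP, at 5.33, 6.86 and 7.47 CPM (chr20:4120980-4187747, plus strand; 104 to 130 counts per library). The libraries with 20 µM genistein held 8.63, 11.7 and 11.7 CPM and those with 20 µM baicalein 20.0, 28.9 and 22.3. The 3 groups did not overlap. SMOX rose 1.70-fold with genistein (log2 fold change 0.77 ± 0.18 (SE), edgeR adjusted p = 0.0106) and 3.72-fold with baicalein (1.90 ± 0.18 (SE), edgeR adjusted p = 1.51e-06). The genistein call was lost with scaling by library totals alone (adjusted p = 0.0507). At 10 µM it held 6.75, 7.50 and 8.04 CPM with genistein and 6.70, 6.52 and 5.82 with baicalein, both overlapping untreated. The step from 10 to 20 µM raised it 3.72-fold with baicalein (edgeR adjusted p = 1.98e-06), and for genistein the step of 0.55 ± 0.18 (SE) was not called (edgeR adjusted p = 0.0547), though it was without genistein 20 µM replicate 1 (adjusted p = 0.0309).

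SAT1 rose with 20 µM genistein. It is the gene of the acetyltransferase that polyamine excess is known to induce, and lies at chrX:23783173-23786210, plus strand. Its level was 307, 327 and 352 CPM in untreated LNCaP, 405, 379 and 448 with 10 µM and 474, 449.8 and 429 with 20 µM genistein. The baicalein libraries held 411, 394 and 374 CPM at 10 µM and 340.3, 396 and 351 at 20 µM. Every library of 3 treated groups lay above every untreated one, and only the 20 µM baicalein group overlapped untreated. SAT1 rose 1.43-fold with 20 µM genistein (log2 fold change 0.51 ± 0.10 (SE), edgeR adjusted p = 0.00428). This call was lost when libraries were scaled by their totals alone (adjusted p = 0.0864) and with the GC and length trend removed (adjusted p = 0.0683). The differences of 0.35 ± 0.10 (SE) with 10 µM genistein (edgeR adjusted p = 0.377), 0.30 ± 0.10 (SE) with 10 µM baicalein (edgeR adjusted p = 0.27) and 0.18 ± 0.10 (SE) with 20 µM baicalein (edgeR adjusted p = 0.14) were not called.

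PAOX, which oxidises what SAT1 acetylates, was near the limit of detection in LNCaP. The 15 LNCaP libraries held between 9 and 25 counts each (chr10:133379261-133391694, plus strand, overlapped on the same strand by another annotated gene). None of its drug comparisons was called. For 20 µM baicalein its interval on the log2 scale ran from -0.50 to 1.00, so a rise of up to about 2-fold lay within it.

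Among the regulators, OAZ1, the main antizyme, rose with 20 µM baicalein. Its gene lies at chr19:2269509-2273490, plus strand and overlaps JSRP1 on the opposite strand and 1 annotated gene on the same strand. The kit does not mark strand, so reads from those neighbours cannot be told apart. OAZ1 stood at 399, 451 and 469 CPM in untreated LNCaP, 439.8, 482 and 475 with 10 µM and 467, 437 and 433 with 20 µM genistein, 531, 451 and 436 with 10 µM baicalein and 501, 724 and 597 with 20 µM baicalein. The last group lay above untreated throughout, with replicate 2 highest. The rise was 1.42-fold (log2 fold change 0.51 ± 0.13 (SE), edgeR adjusted p = 0.0051). Scaled by library totals alone it was 0.22 and no longer called (adjusted p = 0.293).

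OAZ2 and AZIN1 varied too much within groups for the drug comparisons to resolve. OAZ2 (chr15:64687573-64703281, minus strand, overlapped by 3 antisense genes) stood at 37.1, 37.6 and 90.6 CPM in untreated LNCaP, 41.4, 44.5 and 122 and 33.2, 35.0 and 78.3 with 10 and 20 µM genistein, and 56.8, 39.7 and 36.4 and 27.2, 37.9 and 87.5 with 10 and 20 µM baicalein. In PC-3 it stood at 49.4, 43.1 and 102. Replicate 3 was the highest library in 5 of the 6 groups, and in the 10 µM baicalein group it was the lowest. AZIN1 (chr8:102826111-102893864, minus strand, overlapped by 3 noncoding genes on the opposite strand) stood at 99.9, 242 and 199 CPM in untreated LNCaP, 196, 182 and 167 and 141, 258 and 275 with 10 and 20 µM genistein, 121, 231 and 483 and 356, 183 and 226 with 10 and 20 µM baicalein, and 671, 278 and 221 in PC-3. No single replicate number was high throughout.

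The highest library of a group held up to 3.21 times the lowest for OAZ2 and up to 3.99 times for AZIN1. For AMD1 that ratio never exceeded 1.17, and for SAT1 1.18. Among the 10563 genes with a mean of 10 to 1000 CPM over the 18 libraries, 3.66% had a within-group SD on the log2 scale at least as large as that of OAZ2 (0.713) and 4.58% as large as that of AZIN1 (0.669). The corresponding share for AMD1 (SD 0.0658) was 99.3%. The intervals against untreated were accordingly wide: with 20 µM baicalein they ran from -1.29 to 1.13 for OAZ2 and from -0.45 to 1.54 for AZIN1 on the log2 scale.

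**Figure D2:**
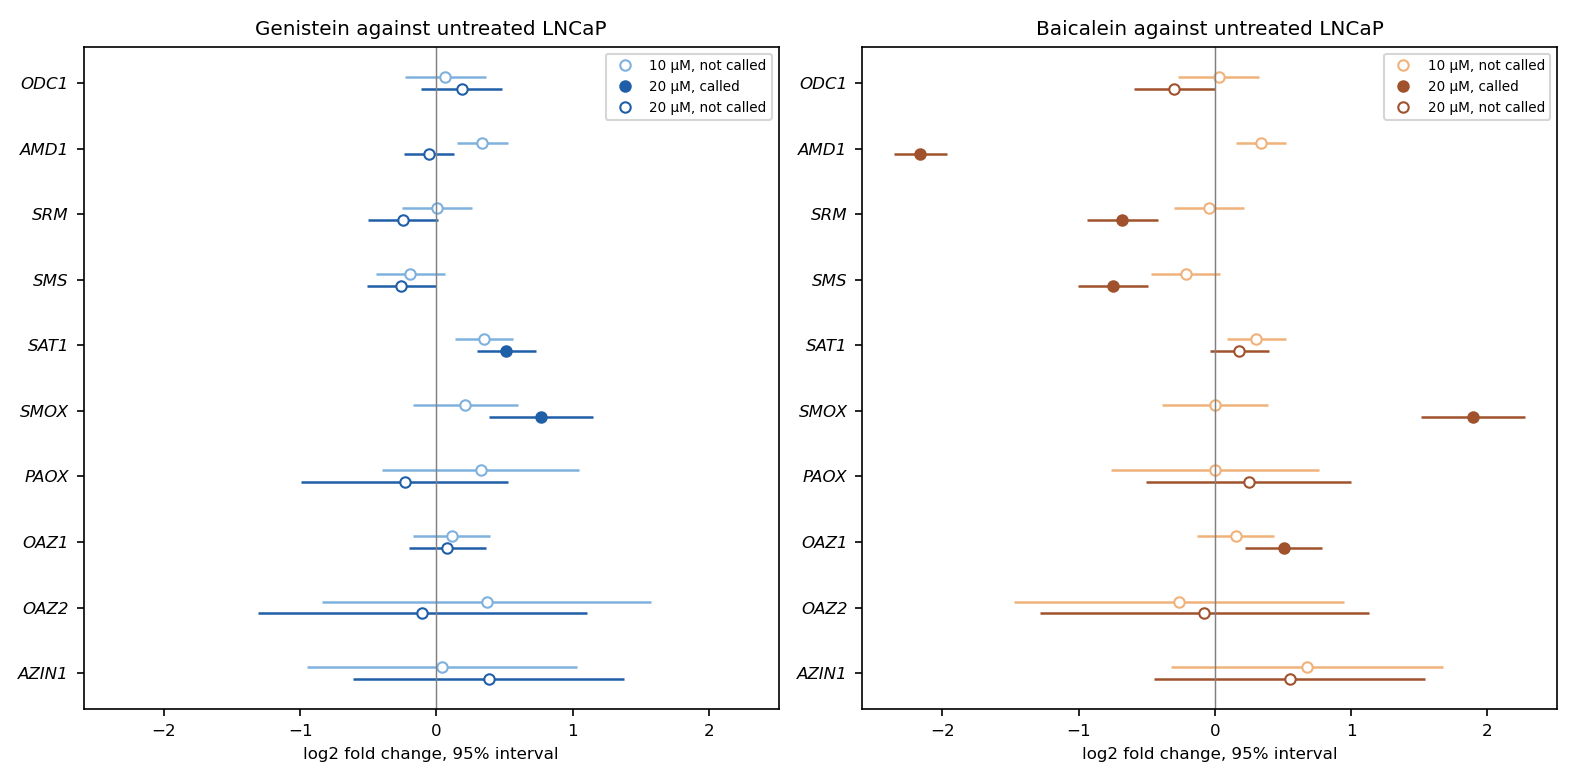
Log2 fold change of each polyamine gene against untreated LNCaP (horizontal axis), with its 95% interval, for genistein (left) and baicalein (right) at 10 µM (pale) and 20 µM (dark); filled points were called at an adjusted p under 0.05. With 20 µM baicalein AMD1 lies at -2.16 and SMOX at 1.90, and no filled point belongs to a 10 µM group.

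Counted over the set, edgeR called 0 of 10 members with 10 µM genistein, where 0.112% of the 16985 genes tested were called in either direction. With 10 µM baicalein it also called 0 of 10, where 0.400% of all genes were called. In both comparisons 2 members, AMD1 and SAT1, fell under 0.05 before adjustment, as did 1458 (genistein) and 1907 (baicalein) of all 16985 genes. With DESeq2, AMD1 was called in each, among 129 of 16843 genes with genistein and 400 of 16129 with baicalein. With 20 µM genistein 2 of 10 were called higher, SAT1 and SMOX, and 0 lower, against 8.31% of all genes called higher and 8.12% lower. With 20 µM baicalein 2 of 10 were called higher, SMOX and OAZ1, against 29.4% of all genes, and 3 lower, AMD1, SRM and SMS, against 27.8%. The median log2 fold change of the 10 members was 0.01 with 20 µM genistein and 0.05 with 20 µM baicalein, beside 0.05 and 0.04 over all genes tested.

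For the step from 10 to 20 µM, genistein gave 0 members called higher, against 5.59% of all genes, and 1 lower, AMD1, against 7.63%. The baicalein step gave 2 called higher, SMOX and OAZ1, against 26.8% of all genes, and 3 lower, AMD1, SRM and SMS, against 27.5%. For OAZ1 the step of 0.35 ± 0.13 (SE) (edgeR adjusted p = 0.0355) came from groups that overlapped, and the call was lost in 7 of 15 alternatives, among them leaving out baicalein 20 µM replicate 2 (0.22, adjusted p = 0.147), baicalein 20 µM replicate 3 (adjusted p = 0.0647), baicalein 10 µM replicate 2 (adjusted p = 0.114) or baicalein 10 µM replicate 3 (adjusted p = 0.118).

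The scale matters for reading these shares. Scaling by library totals alone moved the median of all genes to -0.26 on the log2 scale with 20 µM baicalein, and lowered the share of calls that were higher from 51.4% to 34.6%. For 20 µM genistein the share of higher calls went from 50.6% to 26.5% on that scale and to 39.0% with mitochondrially encoded genes left out. For the genistein step it went from 42.3% to 25.6%, and for the baicalein step from 49.3% to 36.5%. Beside the 20 µM baicalein changes stand 2 other shifts in the same libraries: the mitochondrial share of counts given above, and the LNCaP marker KLK3, at 1492 ± 135 CPM in untreated and 173 ± 61.9 CPM in treated libraries. Without mitochondrially encoded genes the log2 fold changes were -2.22 for AMD1, -0.74 for SRM, -0.81 for SMS, 1.83 for SMOX and 0.45 for OAZ1. The part of the marker shift in these results was not tested.

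Genistein belongs to the isoflavones, baicalein to the flavones: they differ in the carbon of the central ring that carries the phenyl ring and in where their hydroxyl groups sit. The pair was compared at each of the 2 matched doses. At 10 µM, 0 of 10 members were called, against 0.00589% of all genes called in either direction, which is 1 gene of 16985. None of the members had an unadjusted p under 0.05, where 1312 of the 16985 genes did. DESeq2 also called 0 members, where it called 72 of 12562 genes. For 7 members, ODC1, AMD1, SRM, SMS, SAT1, SMOX and OAZ1, the whole 95% interval of the difference lay within 2-fold, between -0.32 and 0.60 on the log2 scale. AMD1 differed by 0.00 with an interval of -0.19 to 0.19. Over 15 alternatives its difference ran from -0.044 to 0.304, with 0 called. For PAOX, OAZ2 and AZIN1 the intervals were wider and passed 2-fold on 1 side each. They ran from -0.44 to 1.09 for PAOX, from -0.58 to 1.85 for OAZ2 and from -1.63 to 0.36 for AZIN1.

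At 20 µM the drugs differed in 7 of 10 members. Genistein libraries were higher in 5, against 25.4% of all genes, and lower in 2, against 23.3%. AMD1 stood 4.31-fold higher with genistein (log2 difference 2.11 ± 0.09 (SE), edgeR adjusted p = 5.73e-09). SMS (0.49 ± 0.12 (SE), edgeR adjusted p = 0.00392), ODC1 (0.48 ± 0.14 (SE), edgeR adjusted p = 0.0108), SRM (0.44 ± 0.12 (SE), edgeR adjusted p = 0.0088) and SAT1 (0.33 ± 0.10 (SE), edgeR adjusted p = 0.014) were higher by less. SMOX was 2.19-fold lower with genistein (-1.13 ± 0.17 (SE), edgeR adjusted p = 0.000154), and OAZ1 was lower by 0.43 (edgeR adjusted p = 0.0164). So all 4 synthesis genes stood higher with genistein than with baicalein at 20 µM, and in each the libraries did not overlap. At this dose 48.7% of all genes were called in either direction, and the share without overlap was not counted. With only the 6 libraries of these groups in the fit, ODC1 (adjusted p = 0.0644), SRM (adjusted p = 0.081) and SAT1 (adjusted p = 0.153) were no longer called. Leaving out genistein 20 µM replicate 1 ended the calls of ODC1 (adjusted p = 0.0517) and SAT1 (adjusted p = 0.0737), and leaving out genistein 20 µM replicate 2 (adjusted p = 0.0553) or baicalein 20 µM replicate 2 (adjusted p = 0.0651) that of OAZ1, which was also lost with library totals (-0.28, adjusted p = 0.2). Scaled by library totals, 62.6% of all calls were higher with genistein, beside 52.1%.

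The drug by dose interaction tests whether the step from 10 to 20 µM differs between the drugs; it is the genistein step minus the baicalein step. AMD1 gave 2.11 ± 0.12 (SE) on the log2 scale (edgeR adjusted p = 3.06e-07), from steps of -0.39 and -2.50. SMOX gave -1.34 ± 0.25 (SE) (edgeR adjusted p = 0.00134), from steps of 0.55 and 1.89. SMS gave 0.47 ± 0.17 (SE) (edgeR adjusted p = 0.0466), a call lost in 15 of 21 alternatives, with adjusted p-values of up to 0.12, among them the omission of any single library other than baicalein 10 µM replicate 3 and baicalein 20 µM replicate 2. Thus 2 of 10 members were called higher, against 17.3% of all genes, and 1 lower, against 15.5%. ODC1 at 0.45 ± 0.19 (SE) (edgeR adjusted p = 0.0964) and SRM at 0.39 ± 0.17 (SE) (edgeR adjusted p = 0.0961) were not called; leaving out baicalein 20 µM replicate 2 brought SRM to an adjusted p of 0.0314, and OAZ1 was called without baicalein 20 µM replicate 1 (adjusted p = 0.0339).

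**Figure D3:**
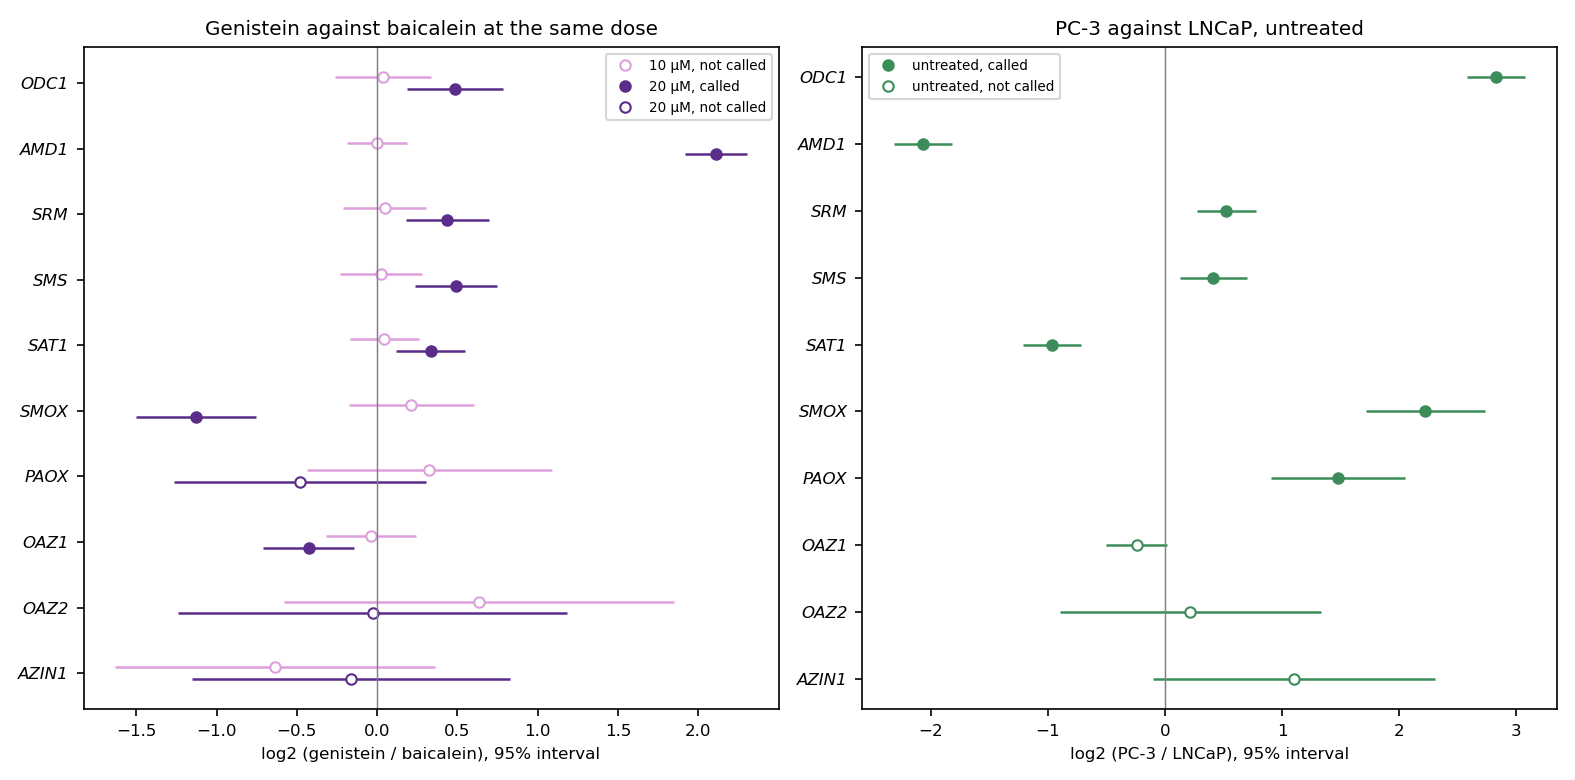
Left: log2 difference between genistein and baicalein at 10 µM (pale) and 20 µM (dark) for each polyamine gene, with 95% intervals. Right: log2 difference between untreated PC-3 and untreated LNCaP. Filled points were called at an adjusted p under 0.05: no 10 µM point is filled, AMD1 lies at 2.11 for the drugs at 20 µM and at -2.07 for PC-3 against LNCaP, and ODC1 lies at 2.83 for PC-3.

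PC-3 and LNCaP, both untreated, had different levels of most of the set. ODC1 stood at 2793, 3453 and 3215 CPM in PC-3 against 424, 434 and 456 in LNCaP, 7.11-fold higher (log2 fold change 2.83 ± 0.11 (SE), edgeR adjusted p = 1.28e-06). AMD1 went the other way, at 136, 144 and 149 CPM in PC-3, 4.20-fold lower (-2.07 ± 0.10 (SE), edgeR adjusted p = 4.09e-06). The first enzyme of the putrescine branch thus had the highest level per kilobase of the 10 genes in PC-3, while that of the aminopropyl donor was in place 7. SRM held 186, 226 and 220.3 CPM in PC-3 and SMS 153, 169.5 and 178, above every untreated LNCaP library. SRM was 1.44-fold higher (edgeR adjusted p = 0.00297) and SMS 1.33-fold higher (edgeR adjusted p = 0.0162). The SMS call was lost in 6 of 15 alternatives, among them without LNCaP untreated replicate 1 (adjusted p = 0.0508) or replicate 3 (adjusted p = 0.0711), and both calls were lost with scaling by library totals (adjusted p = 0.106 for SRM and 0.401 for SMS), which moved the median of all genes to -0.31.

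For breakdown, SMOX held 23.9, 30.7 and 38.6 CPM in PC-3, 4.68-fold above LNCaP (2.23 ± 0.21 (SE), edgeR adjusted p = 7.78e-05). PAOX held 3.13, 2.79 and 3.96 CPM, 2.79-fold higher (1.48 ± 0.24 (SE), edgeR adjusted p = 0.00103). SAT1 held 158, 172 and 183 CPM and was 1.95-fold lower (-0.96 ± 0.10 (SE), edgeR adjusted p = 0.000139). So both oxidases were higher in PC-3 while the acetyltransferase was lower, with no overlap between the lines for any of the 3. The share of all genes without overlap was not counted, and 74.9% were called in either direction. OAZ1 held 348, 369.6 and 412 CPM, overlapping LNCaP, and its difference of -0.24 ± 0.11 (SE) was not called (edgeR adjusted p = 0.0823). It was called lower by DESeq2 (adjusted p = 0.0179), without LNCaP untreated replicate 1 (adjusted p = 0.0492) and without PC-3 untreated replicate 3 (adjusted p = 0.0476). AZIN1 differed by 1.10 ± 0.50 (SE) (edgeR adjusted p = 0.0851) and was called higher without PC-3 untreated replicate 3 (adjusted p = 0.0493), while OAZ2 differed by 0.22 ± 0.47 (SE) (edgeR adjusted p = 0.693). In all, 5 of 10 members were called higher in PC-3, against 37.0% of the 17259 genes tested, and 2 lower, against 37.9%. The median log2 fold change was 0.47 over the members and -0.02 over all genes tested.

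The wider pathway was read from 6 lists with 37 genes, of which 32 were tested in LNCaP and 34 between the lines. With 10 µM genistein edgeR called 0 of the 32, with 3 under 0.05 before adjustment, and DESeq2 called 2, SLC7A1 and SLC7A2. Of all genes, edgeR called 0.112%, 1458 of 16985 fell under 0.05 before adjustment, and DESeq2 called 129 of 16843. With 10 µM baicalein each tool called 1, against 0.400% of all genes with edgeR and 400 of 16129 with DESeq2. It was the arginine importer SLC7A1, which was lower (-0.46, edgeR adjusted p = 0.0455). That edgeR call was lost in 9 of 15 alternatives, among them leaving out any single untreated library or baicalein 10 µM replicate 2 or 3 (adjusted p of up to 0.228 over the 9). With 20 µM genistein 4 rose and 0 fell, against 8.31% of all genes called higher and 8.12% lower, and with 20 µM baicalein 6 rose and 12 fell, against 29.4% and 27.8%. Between the drugs at 20 µM, 14 were higher with genistein and 5 lower, against 25.4% and 23.3% of all genes. For the interaction 8 were called higher and 2 lower, against 17.3% and 15.5%. The genistein step gave 5 and 2, against 5.59% and 7.63%, and the baicalein step 3 and 10, against 26.8% and 27.5%. Of the 7 calls in the genistein step only that of ARG2 held in 15 of 15 alternatives. Each of the others was lost in 3 to 8 of the 15. At 10 µM edgeR called 0 of 32 between the drugs, with 2 under 0.05 before adjustment, and DESeq2 called 1, SLC7A1. There edgeR called 0.00589% of all genes, 1312 of 16985 fell under 0.05 before adjustment, and DESeq2 called 72 of 12562.

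The supply of ornithine and arginine, from which putrescine is made, had 6 tested genes in LNCaP. Baicalein at 20 µM lowered 3 of them and raised 1, against 27.8% and 29.4% of all genes. ASL, argininosuccinate lyase, fell from 48.4 ± 2.21 to 19.1 ± 1.80 CPM (-1.30 ± 0.12 (SE), edgeR adjusted p = 1.69e-06), SLC7A1 from 306 ± 0.385 to 196 ± 7.96 CPM (-0.60 ± 0.09 (SE), edgeR adjusted p = 6.75e-05), and ASS1, argininosuccinate synthase, rose from 40.4 ± 3.19 to 49.1 ± 8.23 CPM (0.32 ± 0.12 (SE), edgeR adjusted p = 0.035). The ASS1 groups overlapped, and its call was lost in 11 of 15 alternatives, among them DESeq2 (adjusted p = 0.0708), library totals (0.03, adjusted p = 0.875), leaving out any single untreated library, and leaving out baicalein 20 µM replicate 2 or 3. The call of the remaining lowered gene was lost in 9 of 15 alternatives (adjusted p of up to 0.126). Genistein at 20 µM raised 2 and lowered 0, against 8.31% and 8.12% of all genes. The 2 were ASS1 (0.59 ± 0.12 (SE), edgeR adjusted p = 0.00524) and ARG2, the mitochondrial arginase that releases ornithine (0.45 ± 0.10 (SE), edgeR adjusted p = 0.00963). Both calls were lost with library totals (adjusted p = 0.0816 for ASS1 and 0.171 for ARG2), and that of ARG2 without genistein 20 µM replicate 1 (adjusted p = 0.0603).

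The methionine cycle and salvage list covers the enzymes that make S-adenosylmethionine, the substrate of the AMD1 product, and recycle what the synthases leave. With 20 µM baicalein 5 of 10 fell and 0 rose, against 27.8% and 29.4% of all genes. MAT2A, the main methionine adenosyltransferase outside the liver, fell from 339.7 ± 36.7 to 114 ± 11.9 CPM (-1.53 ± 0.11 (SE), edgeR adjusted p = 1.78e-07). AHCY, which clears S-adenosylhomocysteine, fell from 414 ± 12.0 to 234 ± 40.3 CPM (-0.79 ± 0.13 (SE), edgeR adjusted p = 0.00019), and MRI1, of the salvage route, from 25.0 ± 2.82 to 14.2 ± 1.87 CPM (-0.77 ± 0.15 (SE), edgeR adjusted p = 0.000733). The median of the list was -0.45 on the log2 scale, beside 0.04 over all genes tested. With 20 µM genistein 1 of the 10 was called higher and 0 lower, against 8.31% and 8.12% of all genes. It was MAT1A (1.24 ± 0.26 (SE), edgeR adjusted p = 0.00625), at 0.711 ± 0.0512 CPM in untreated and 1.63 ± 0.355 CPM in treated libraries. This rests on 11 to 15 counts per untreated library and 17 to 31 per treated one.

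Hypusination is the modification of the translation factor eIF5A that uses spermidine. With 20 µM baicalein EIF5A fell from 281 ± 7.42 to 168 ± 29.1 CPM (-0.70 ± 0.12 (SE), edgeR adjusted p = 0.000262), while DOHH, the gene of 1 of the 2 modifying enzymes, rose (0.96 ± 0.20 (SE), edgeR adjusted p = 0.00112). For the other, DHPS (0.24 ± 0.10 (SE), edgeR adjusted p = 0.0428), the groups overlapped, the call was lost in 11 of 15 alternatives, among them DESeq2 (adjusted p = 0.117), leaving out untreated replicate 1 or 2 and leaving out baicalein 20 µM replicate 2 or 3, and the sign turned with library totals (-0.05, adjusted p = 0.75). With 20 µM genistein 0 of the 4 genes was called by edgeR or by DESeq2, with 0 and 1 under 0.05 before adjustment. Of all genes, edgeR called 16.4% in either direction and DESeq2 3263 of 19702. The median of the 4 was 0.13. Of the 5 transport genes tested in LNCaP, 1 rose and 2 fell with 20 µM baicalein, against 29.4% and 27.8% of all genes. SLC3A2, the heavy chain shared by several amino acid exchangers, rose from 344 ± 17.8 to 1275 ± 169.8 CPM (1.93 ± 0.11 (SE), edgeR adjusted p = 2.41e-08), and SLC18B1, a vesicular polyamine transporter, fell (-1.36 ± 0.25 (SE), edgeR adjusted p = 0.000528), as did ATP13A2, a lysosomal polyamine exporter (-0.44 ± 0.18 (SE), edgeR adjusted p = 0.0448). The ATP13A2 call was lost in 6 of 15 alternatives, among them leaving out untreated replicate 2 or 3 or baicalein 20 µM replicate 1 or 3 (adjusted p of up to 0.161). SLC3A2 also rose with 20 µM genistein (0.47 ± 0.11 (SE), edgeR adjusted p = 0.011), a call lost with library totals (adjusted p = 0.152), without untreated replicate 2 (adjusted p = 0.0782) and without genistein 20 µM replicate 1 (adjusted p = 0.0742). Of 3 tested paralogues of the members, 0 were called with either drug at 20 µM by edgeR or DESeq2, and 0 had an unadjusted p under 0.05. At 20 µM edgeR called 16.4% of all genes in either direction with genistein and 57.2% with baicalein.

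Among 4 regulators 2 were called higher and 1 lower with 20 µM baicalein, against 29.4% and 27.8% of all genes: NFE2L2, the regulator of oxidative stress genes, rose (0.89 ± 0.17 (SE), edgeR adjusted p = 0.000751), MAX was called higher (1.47 ± 0.51 (SE), edgeR adjusted p = 0.0259) and MYC lower (-2.27 ± 0.78 (SE), edgeR adjusted p = 0.025). MYC stood at 10.6, 18.9 and 70.6 CPM in untreated LNCaP, overlapped the treated group, and was -1.12 without untreated replicate 3 (adjusted p = 0.197) and -2.89 without baicalein 20 µM replicate 1 (adjusted p = 0.022). Its call was lost in 7 of 15 alternatives, also without baicalein 20 µM replicate 2 (adjusted p = 0.0837) or replicate 3 (adjusted p = 0.0813). MAX stood at 34.6, 105.8 and 37.8 CPM with 20 µM baicalein and was 0.77 without replicate 2 (adjusted p = 0.183), and its call was lost in 6 of 15, also without any single untreated library (adjusted p of up to 0.0721). With 20 µM genistein 0 of the 4 were called by edgeR or DESeq2, and 0 had an unadjusted p under 0.05. There edgeR called 16.4% of all genes in either direction.

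**Figure D4:**
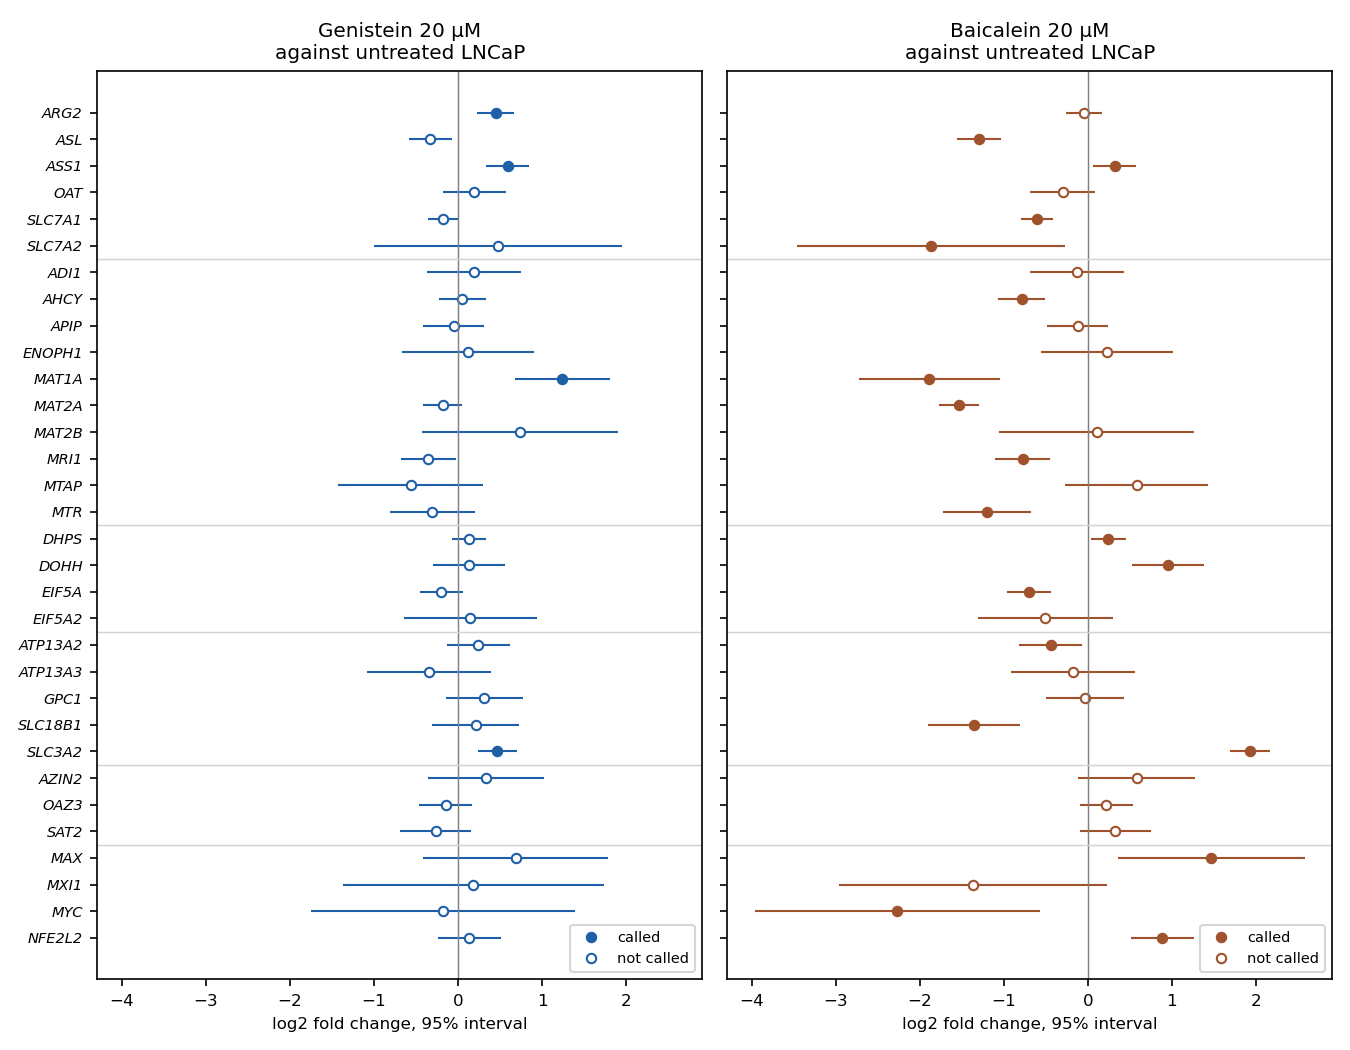
Log2 fold change against untreated LNCaP, with 95% intervals, of the 32 related genes tested in LNCaP, for 20 µM genistein (left) and 20 µM baicalein (right); grey lines part the 6 lists and filled points were called. From top to bottom the lists are ornithine and arginine supply, methionine cycle and salvage, hypusination, transport, paralogues and regulators; MYC at -2.27, which is -1.12 without untreated replicate 3, and SLC3A2 at 1.93 with baicalein are the farthest called points on either side.

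Between the lines, 11 of 34 related genes were higher in PC-3 and 13 lower, against 37.0% and 37.9% of all genes. In ornithine and arginine supply 2 were higher and 4 lower. OAT, the aminotransferase that links ornithine to proline and glutamate, stood at 174 ± 3.52 CPM in PC-3 against 5.29 ± 0.241 in LNCaP (5.02 ± 0.11 (SE), edgeR adjusted p = 2.99e-07). ARG2 (-3.47 ± 0.11 (SE), edgeR adjusted p = 7.14e-07) and SLC7A1 (-3.05 ± 0.09 (SE), edgeR adjusted p = 7.14e-07) were lower in PC-3. In the methionine list 3 were higher and 4 lower, with MRI1 (1.23 ± 0.12 (SE), edgeR adjusted p = 9.19e-05) and APIP (0.98 ± 0.15 (SE), edgeR adjusted p = 0.000761) of the salvage route higher and methionine synthase MTR lower (-0.84 ± 0.13 (SE), edgeR adjusted p = 0.000776). Among paralogues, the antizyme gene OAZ3 was lower (-2.75 ± 0.24 (SE), edgeR adjusted p = 4.3e-05) and the antizyme inhibitor gene AZIN2 higher (2.09 ± 0.30 (SE), edgeR adjusted p = 0.000537). DOHH was lower (-0.41 ± 0.13 (SE), edgeR adjusted p = 0.021), a call lost in 4 of 15 alternatives, among them leaving out any single PC-3 library (adjusted p of up to 0.0771). EIF5A was called higher (0.35 ± 0.13 (SE), edgeR adjusted p = 0.0435), and that call was lost in 12 of 15, among them DESeq2 (adjusted p = 0.123), library totals (0.07, adjusted p = 0.682), leaving out any single LNCaP library, and leaving out PC-3 replicate 2 or 3.

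Transport genes between the lines included the 2 caveolar and glypican genes linked to polyamine uptake. CAV1 had 18927 counts in the PC-3 libraries and 1 in untreated LNCaP, a ratio of 27247 with a 95% counting interval of 4890 to 1076264, which covers counting error only. GPC1 was higher in PC-3 (2.18 ± 0.11 (SE), edgeR adjusted p = 3.92e-06) and SLC3A2 lower (-1.07 ± 0.12 (SE), edgeR adjusted p = 2e-04). Of the regulators, MAX was higher (2.73 ± 0.22 (SE), edgeR adjusted p = 3.18e-05), and MXI1 (-1.76 ± 0.38 (SE), edgeR adjusted p = 0.00445) lower.

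Likeness to other genes was measured as the Pearson correlation of log2(CPM + 0.5) over the 15 LNCaP libraries, among 11246 genes with a mean of at least 5 CPM. These values are descriptions, since the libraries share 5 treatment groups and the 20 µM baicalein group stands apart for many genes. The profiles most like AMD1 were those of ABCA12 (0.996), KLHL12 (0.994) and LINC00161 (0.994), and those most like SMOX were RUFY1 (0.980), RGS3 (0.980) and LENG1 (0.979). For ODC1 they were CDK5 (0.942), ATP13A2 (0.937) and POLR2G (0.936), and for SAT1 GPN1 (0.907), COPG1 (0.894) and NEK8 (0.886). ATP13A2 is the lysosomal polyamine exporter named above. The correlation also takes in differences between libraries of the same group, and a link of ATP13A2 to ODC1 was not tested.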

How the data were processed

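Poly(A) RNA was sequenced in 18 libraries. The authors deposited raw counts per gene in whole numbers; the build was GRCh38 and the tools named were STAR 2.7.6a, featureCounts 1.6.4, DESeq2 1.20.0 and fastp, per the submitters' processing notes. Strand setting, annotation release and handling of reads with several positions: not given in the sources used here. Left out were 18 deposited FPKM columns, whose headers name baicalein 20 µM 6 times and 10 µM 0 times.

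The members, the related lists and the tests were chosen with earlier results of these data known. Counts were tested with edgeR 4.0.16 in R 4.3.3 (TMM, default low-count filter, robust quasi-likelihood F test): 15 LNCaP libraries in 1 fit (16985 genes, 10 residual degrees of freedom) and 6 untreated libraries in another (17259 genes, 4 residual degrees of freedom). All 10 members passed the filter in both. P-values were Benjamini-Hochberg adjusted within each comparison and called under 0.05. SE was taken as the size of the log2 fold change before shrinkage divided by the root of F; intervals are 95%. Fold changes come from the fits and differ slightly from ratios of the mean CPM. The scripts were tested on simulated data.

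All members are named; of each related list, at most the 3 with the smallest adjusted p in a comparison. A further gene first chosen for the lists is not reported here and enters no count. Alternatives were DESeq2 1.42.0, other scalings and filters, GC and length correction, a replicate block, other fits and leaving out each library. Exon lengths and GC content came from GENCODE 29, promoters from RefSeq on GRCh38.p14. Libraries of a group differed by more than sampling noise in every pair.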

Additional observations from a re-analysis of the deposited data

Results flagged for a closer look

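For 3 members the response to the second 10 µM of drug differed between genistein and baicalein by the interaction test of edgeR. For AMD1 the genistein step minus the baicalein step was 2.108 on the log2 scale (adjusted p = 3.06e-07), with values between 1.87 and 2.19 over the 21 alternatives, all called. For SMOX it was -1.34 (adjusted p = 0.00134), between -1.44 and -1.15 over the same alternatives, all called. For SMS it was 0.466 (adjusted p = 0.0466), and 6 of 21 alternatives kept the call.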

How the results depend on the processing

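Of the fold changes of members that were called or had an unadjusted p under 0.05, 555 values recomputed under the alternatives kept their direction and their side of the threshold, 47 lost a call, 28 gained one and 0 reversed. AMD1, SRM, SMS and SMOX were called with 20 µM baicalein against untreated in 15 of 15 alternatives each, and OAZ1 in 14. With DESeq2 the number of members called was 1 with 10 µM genistein and 1 with 10 µM baicalein, in place of 0, and 2 for the genistein step, in place of 1. Scaling by library totals gave 0 with 20 µM genistein against untreated, in place of 2, and shifted the median of all genes to between -0.31 (PC-3) and 0.17 (genistein against baicalein at 20 µM). With no filter the genistein step gave 0. With the GC and length trend removed it gave 2 and the interaction 5, in place of 3. With only the compared groups fitted, genistein against baicalein at 20 µM gave 4, in place of 7, and the genistein step 2. Replicate numbers did not pair samples alike in all groups: 12 of 45 same-numbered pairs deviated together with a correlation over 0.1 (range -0.563 to 0.508). Of 90 matches of a library to another group, 26 were best with its own number. For replicate 1 the correlations were 0.249 to 0.38 among untreated LNCaP, 10 µM genistein, 20 µM baicalein and PC-3. Between 10 µM baicalein and 20 µM genistein the value was 0.508, and across these sets of groups it was -0.563 to -0.347. The replicate block gave 2 for the genistein step, where it added SMOX (adjusted p = 0.0434), and with GC and length removed as well the interaction gave 5; it also ended the call of OAZ1 in the baicalein step (adjusted p = 0.0602) and of SMS in the interaction (adjusted p = 0.0522), and called OAZ1 lower in PC-3. With GC and length removed as well, the calls of AMD1 in the genistein step (adjusted p = 0.0642), SAT1 between the drugs at 20 µM (adjusted p = 0.0699) and with 20 µM genistein (adjusted p = 0.107), and SRM (adjusted p = 0.0894) and SMS (adjusted p = 0.135) in PC-3 were lost. Leaving out each library in turn gave 0 to 2 members for the genistein step, with 0 without genistein 10 µM replicate 3 and 2 without genistein 20 µM replicate 1. The causes were not tested. PAOX rests on 9 to 25 counts per LNCaP library, and OAZ2 and AZIN1 had within-group SDs of 0.713 and 0.669 on the log2 scale.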
